A study of Mus musculus with 8 samples.

Results

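The genes described here are the 10 genes of calcium release from the endoplasmic reticulum (ER) and of calcium entry after its depletion, namely Itpr1, Itpr2, Itpr3, Ryr1, Ryr2, Ryr3, Stim1, Stim2, Orai1 and Atp2a2. They were chosen by name from the 17500 genes of the deposited count table, each matched 1 row, and all 10 passed the filter on low counts that left 16797 genes to test. Whole retinas of 4 Rbfox2-deficient mice and 4 control mice were sequenced as poly(A)-selected RNA, with 1 library per mouse, to find genes that depend on Rbfox2, an RNA-binding protein that regulates splicing and mRNA stability. The labels give all mice as C57BL/6J and 6 months old.

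The Rbfox2-deficient mice, labelled Rbfox2 KD, were M893, M901, M902 and M909, and the controls were M833, M894, M896 and M898. By the study's methods, the deficient mice were Rbfox2 fl/fl and carried a tamoxifen-activated Cre recombinase that deletes part of Rbfox2, and the retinas were taken 4 months after tamoxifen. The controls were heterozygous Rbfox2 fl/+ mice of the same age. The labels give tamoxifen for every mouse, whereas the methods describe it for the deficient mice and name a corn oil vehicle, so that effects of the deletion, of Cre and of the drug cannot be told apart. The RNA is that of the whole retina, in which fewer cells of a type and less RNA per cell cannot be told apart.

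Inositol 1,4,5-trisphosphate (IP3) receptors and ryanodine receptors are the large tetrameric channels through which calcium leaves the ER, the former opened by IP3 and calcium and the latter by calcium or by voltage sensors of the plasma membrane. The SERCA pump, encoded by Atp2a2 in most cells, refills the store, and when the store is depleted the STIM proteins of its membrane open ORAI channels in the plasma membrane. In the retina, these stores take part in photoreceptor and bipolar cell transmission, in amacrine and ganglion cell signalling and in the calcium waves of Müller glia.

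Total counts per mouse ranged from 160630226 to 211283591, and the 10 genes had between 579 and 89742 counts in a mouse, so that the spread between mice and not the depth limits their precision. Rbfox2 had 143.8 to 157 CPM (the count relative to the TMM-scaled library size) in the controls and 53.6 to 59.4 CPM in the Rbfox2 KD mice. The libraries M901 and M902 stood apart from the other 6 along the first principal component, which held 40.5% of the variance, and they alone had high Xist (1440 and 1739 CPM, against at most 2.22 CPM in the others). Both are Rbfox2 KD mice, so no control shares this property. Transcripts of skeletal muscle summed to 5.20 to 7.95 CPM over 9 marker genes in the controls and 5.16 to 8.32 CPM in the Rbfox2 KD mice.

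None of the 10 genes passed an FDR of 0.05 over all genes tested in edgeR's quasi-likelihood test, which 0.0655% of all genes did. At p under 0.01, the threshold of the study's own analysis, 3 of the 10 passed (3.88% of all genes), with Itpr1 higher (1.94% of all genes) and Itpr3 and Stim1 lower (1.93%) in Rbfox2 KD retinas. Only Itpr1 still passed without M901 and M902 (1.48% of all genes), with a term for these mice in the model (1.76%) or with 1 surrogate variable (1.77%). The CPM of the groups did not overlap for 4 of the 10 genes, against 7.03% of all genes tested. Itpr1 lay above all controls (3.64% of all genes), and Itpr2, Itpr3 and Stim1 below them (3.39%). The median log2 fold change over the 10 genes was -0.12, with 8 negative values, and that of all genes tested was 0.0016. The 10 genes were chosen with earlier results of these data known, and the study's own pathway table of top genes lists Itpr1 and Stim1. The counts beside all genes are therefore a description and no test of the group. The study's pathway table is headed control over Rbfox2-deficient and marks Itpr1 with a plus and Stim1 with a minus. Read by that heading, these signs are opposite to the directions found here.

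Compared per length, in FPKM as deposited, the 10 genes spanned a wide range of levels, and they are given here in the order of their means over all 8 mice. Atp2a2 was highest, with 99.3 ± 2.03 FPKM (SD, n = 4) in controls, followed by Stim1 with 24.0 ± 1.54 FPKM. Itpr1 (9.38 ± 0.268 FPKM) and Stim2 (9.72 ± 0.389 FPKM) came next and were the only neighbours in the order whose values over all 8 mice overlapped. Below them were Ryr2 (6.27 FPKM in controls), Orai1 (3.85 FPKM), Itpr2 (3.13 FPKM), Ryr3 (1.999 FPKM), Itpr3 (1.16 FPKM) and Ryr1 (0.281 FPKM). No other pair of neighbours overlapped. The length used changed part of this order: with CPM divided by the length of all annotated exons, Stim2 with 9.15 CPM per kb came directly after Atp2a2 and ahead of Stim1 with 7.86 and Itpr1 with 5.41 CPM per kb.

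**Figure D1:**
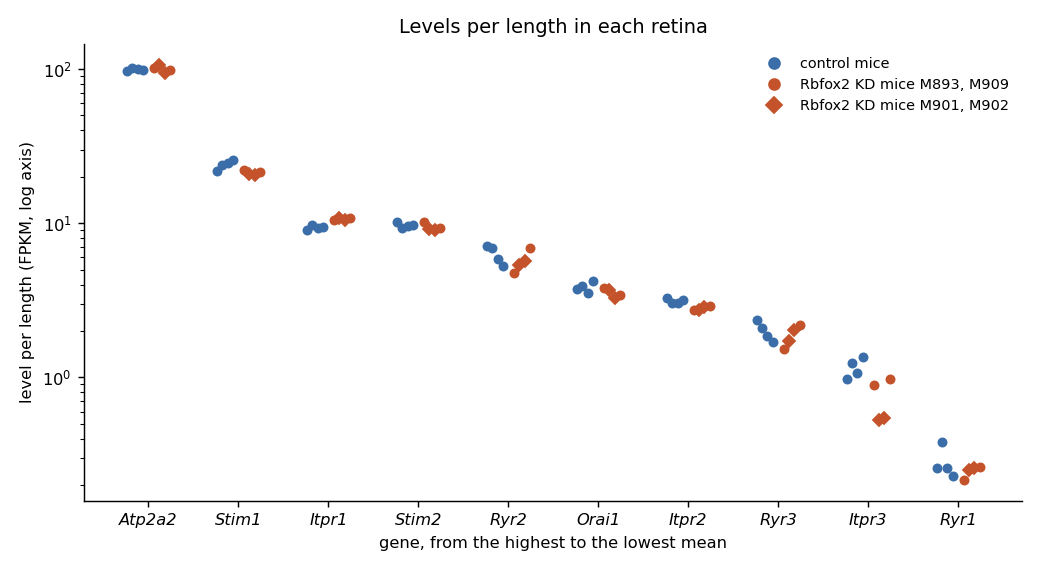
Level per length of the 10 genes in each mouse (FPKM, log axis), ordered by the mean over 8 mice, with controls in blue, Rbfox2 KD mice in red and M901 and M902 as diamonds. Atp2a2 lies near 99.3 FPKM and Ryr1 near 0.281 FPKM, and only Itpr1 and Stim2 overlap as neighbours.

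Rbfox proteins bind GCAUG, most often preceded by U, and a binding site in a 3′ UTR is 1 of the ways in which they can act on an mRNA. The letters TGCATG were therefore looked up on the sense strand of 1 annotated 3′ UTR per gene (GENCODE M21, GRCm38, the build named mm10 in the study). They occurred in 4 of the 10 genes, against 33.3% of 14826 genes tested with a 3′ UTR, a share that was larger in longer 3′ UTRs, from 7.20% under 500 bases to 84.7% at 4000 bases or longer. The sites are shown because they are the 6 matches found in the 3′ UTRs searched for the 10 genes; each line is 30 bases, 5′ to 3′ on the strand of the mRNA and written as DNA, with the hexamer in capitals.
Stim1, plus strand, chr7:102436142-102436171: tctccacttcagTGCATGtcttagttgctc
Orai1, plus strand, chr5:123030091-123030120: cgtgtgtgtacaTGCATGtgtgtgcaagtg
Orai1, plus strand, chr5:123030109-123030138: tgtgtgcaagtgTGCATGcacacttgtatg
Ryr2, minus strand, chr13:11553920-11553949: cagaagataatgTGCATGacaaacaccttt
Ryr2, minus strand, chr13:11553608-11553637: gaaataattcatTGCATGtttattatgcaa
Atp2a2, minus strand, chr5:122456727-122456756: tattgtgtctttTGCATGattctctggatt
The windows of the Orai1 pair overlap, in a stretch rich in TG. The hexamer was not found in the 3′ UTRs of Itpr1 (1270 bases), Stim2 (2308 bases), Itpr2 (191 bases), Itpr3 (695 bases), Ryr1 (114 bases) and Ryr3 (764 bases), so that of the 3 genes that passed p under 0.01 Stim1 holds a match and Itpr1 and Itpr3 do not. Introns, where Rbfox proteins also bind, were not searched. In the promoters available for 7 members (250 bases before to 50 after the start, RefSeq, both strands), TGCATG occurred in that of Itpr3 only, and 11.01% of 32851 promoters hold it.

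Itpr1 (chr6:108213096-108551109, plus strand) encodes the IP3 receptor that prevails in neurons. Values are given throughout with the mice of each group in the order of their numbers, lowest first. The control levels of Itpr1 were 91.1, 94.6, 90.4 and 92.1 CPM, and in the Rbfox2 KD mice they were 103, 108.7, 105.6 and 107.1 CPM. Every Rbfox2 KD mouse was thus above every control, and the lowest of them exceeded the highest control by more than the range within the control group. The means of 106 ± 2.55 and 92.1 ± 1.84 CPM (SD, n = 4) correspond to a log2 fold change of 0.20 ± 0.031 (SE), or 15.1%. In edgeR's quasi-likelihood test its p ranked 16 among 16797 genes, with a Benjamini-Hochberg FDR of 0.0623, whereas DESeq2 gave an FDR of 8.44e-06 (2.74% of all genes under 0.05) and edgeR's likelihood ratio test an FDR of 0.0043 (0.976%). Without M901 and M902, the log2 fold change was 0.19 ± 0.044 (edgeR FDR = 0.496). Its p stayed under 0.01 in all 19 alternatives tried.

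Itpr2 (chr6:146108299-146502223, minus strand) encodes the IP3 receptor with the highest affinity for IP3, which prevails in astroglial cells. In controls it had 38.9, 34.96, 35.5 and 36.6 CPM, and in Rbfox2 KD mice 31.9, 32.4, 33.8 and 34.4 CPM. All Rbfox2 KD mice were below all controls, M909 and M894 lying closest to each other. The log2 fold change was -0.14 ± 0.046 (edgeR FDR = 0.268), and without M901 and M902 it was -0.14 ± 0.060 (edgeR FDR = 0.817).

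Itpr3 (chr17:27057304-27122223, plus strand) encodes the IP3 receptor of many epithelial and secretory cells, and its level in the retina was the lowest of the 3. It had 8.94, 10.99, 9.47 and 12.03 CPM in controls and 7.92, 4.84, 4.93 and 8.79 CPM in Rbfox2 KD mice. The groups met closely, M833 with 8.94 and M909 with 8.79 CPM, and the lowest values were those of M901 and M902. The log2 fold change was -0.64 ± 0.196 (edgeR FDR = 0.243), the largest in size among the 10 genes. It was -0.31 ± 0.129 (edgeR FDR = 0.809) without M901 and M902, and -0.25 ± 0.088 with 1 surrogate variable in the model (edgeR FDR = 0.631). Leaving out any 1 of M894, M896, M898, M901 and M902 also took p above 0.01, with edgeR p-values from 0.0118 to 0.0252 and log2 fold changes from -0.69 to -0.52.

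Summed marker levels of several cell types, inside and outside the neural retina, were also lowest in M901 or M902. Müller glia markers summed to 4286 CPM in M901 and 4313 CPM in M902, and astrocyte markers to 26.9 and 29.2 CPM. The sums of horizontal cells, microglia, endothelium and skeletal muscle were lowest in M901 or M902 as well. Those of rods, cones, bipolar, amacrine and ganglion cells were lowest in other mice. Over 7 marker genes of pericytes and smooth muscle, the summed level was 45.1 to 65.0 CPM in controls and 36.4 to 47.8 CPM in Rbfox2 KD mice, lowest in M902 (36.4 CPM) and M901 (38.8 CPM). Of the 6 that were tested, 1 (Rgs5, a pericyte marker) was lower at p under 0.01 with all mice (1.93% of all genes) but not without M901 and M902. At p under 0.05, 4 were lower (1154 of all 16797 genes), namely Rgs5 and the contractile genes Acta2, Myh11 and Tagln. Their log2 fold changes were -0.34 ± 0.080, -1.17 ± 0.381, -1.62 ± 0.523 and -0.61 ± 0.268, with edgeR FDRs from 0.176 to 0.371. Acta2 had 2.36 to 7.58 CPM in controls and 1.11 to 2.36 CPM in Rbfox2 KD mice, while the pericyte marker Pdgfrb had 19.4 to 22.6 and 18.5 to 24.1 CPM. Over the 19 alternatives, the log2 fold change of Pdgfrb ran from -0.056 to 0.17. M898 was the highest control for Acta2, Myh11 and Tagln, with 7.58, 13.4 and 3.23 CPM. The other controls had at most 3.21, 4.94 and 1.94 CPM of these genes. The smooth muscle marker Cnn1 was at most 0.074 CPM in any mouse. Over 8 markers of pigment and ciliary epithelium, the sum was 107.6 to 195.7 CPM in controls and 95.1 to 196.5 CPM in Rbfox2 KD mice. It was lowest in M901, while M902 with 118.9 CPM was above the controls M833 and M896. None of the 8 passed p under 0.01. Single markers in this list differed from the sum. Best2, a channel of the ciliary epithelium, had 5.13, 7.31, 7.12 and 16.03 CPM in controls and 4.26, 0.150, 0.208 and 4.14 CPM in Rbfox2 KD mice, below all controls and lowest in M901 and M902, like Itpr3 (log2 fold change -2.02 ± 0.884, edgeR FDR = 0.369). The paper also reports a lower level of Best2 in Rbfox2-deficient retinas by real-time PCR. Pmel, a melanosome protein, had 2.87 to 51.7 and 1.69 to 8.88 CPM. The 2 most abundant of the 8 markers, Ttr and Krt18, went the other way, with log2 fold changes of 0.39 ± 0.298 and 0.05 ± 0.112. They were the only 2 of the 8 with positive values. The markers named in this paragraph were singled out after their values were seen. The 5 genes whose log2 CPM followed Itpr3 most closely over the 8 mice, after subtraction of each group's mean, were Sod3, Sema3b, Serping1, Penk and Efemp1, with Pearson correlations of 0.984 to 0.989 that are given as a description. This list was drawn up after the values of Itpr3 were seen. The part of the cell types of this paragraph in the difference of Itpr3 was not tested.

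**Figure D2:**
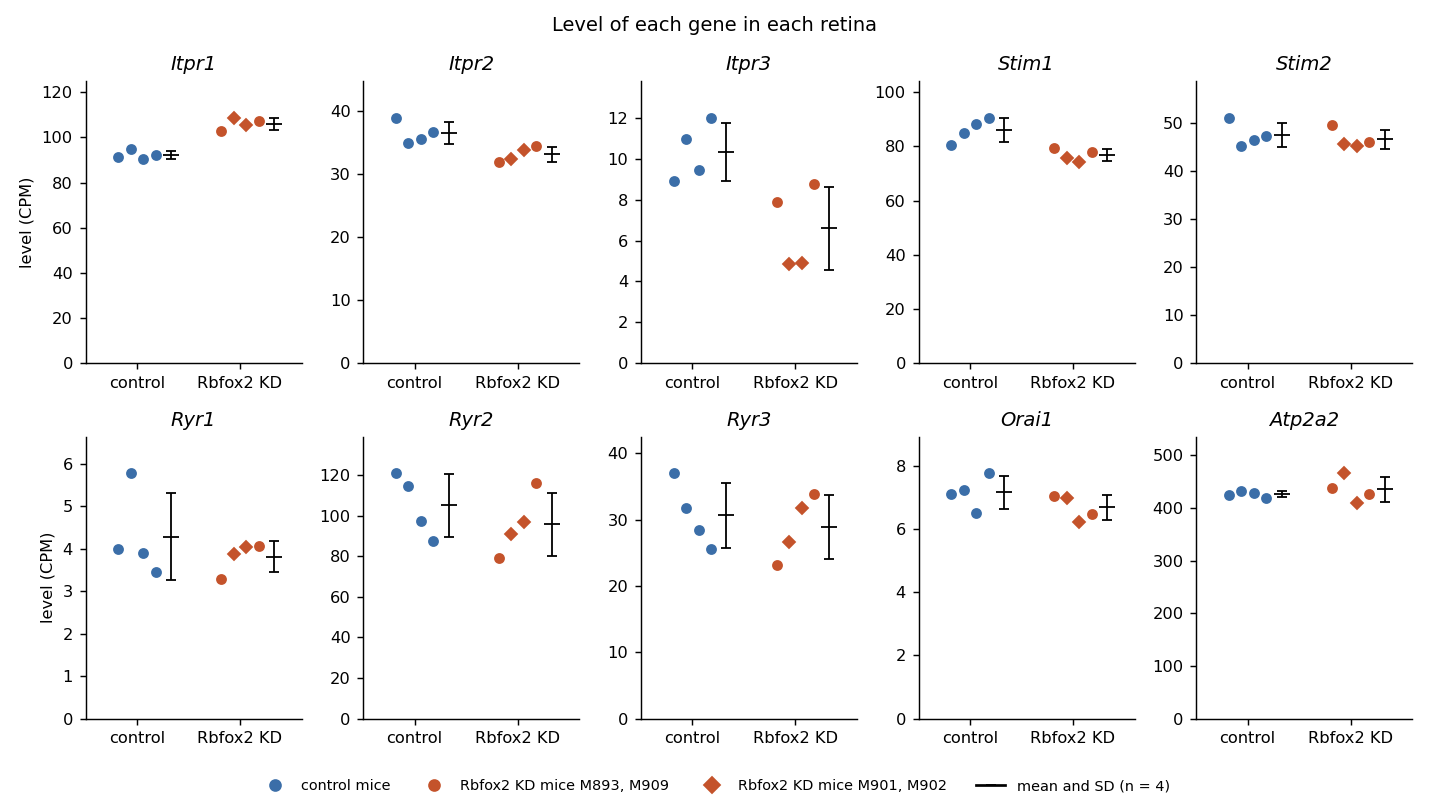
Level of each of the 10 genes in each mouse (CPM, axes starting at 0), controls in blue and Rbfox2 KD mice in red, M901 and M902 as diamonds, with the mean and SD of each group (n = 4). Itpr1 lies between 90.4 and 94.6 CPM in controls and between 103 and 108.7 CPM in Rbfox2 KD mice, and Itpr3 is lowest in M901 and M902, with 4.84 and 4.93 CPM.

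Within the IP3 receptor family, the sum of the 3 FPKM values was 13.3 to 14.0 in controls and 13.9 to 14.7 in Rbfox2 KD mice, so the family total overlapped while its composition did not. Itpr1 made up 68.2, 69.5, 69.2 and 67.6% of this sum in controls and 74.3, 76.9, 75.7 and 73.5% in Rbfox2 KD mice. The share of Itpr2 was 21.6 to 24.5% in controls and 19.3 to 20.4% in Rbfox2 KD mice, and that of Itpr3 was 7.34 to 9.70% and 3.76 to 6.63%. None of these shares overlapped between the groups. The shares are parts of the same sum and restate the values of the 3 genes above, so they are no separate evidence. The ratio of Itpr1 to Itpr2, which does not depend on the scaling of the libraries, was 2.78 to 3.21 in controls and 3.70 to 3.98 in Rbfox2 KD mice.

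Markers of Müller glia, which hold much of the retina's astroglial calcium signalling, summed over 5 genes to 4773 to 5286 CPM in controls and 4286 to 4782 CPM in Rbfox2 KD mice. Of the 5, 1 (Glul, glutamine synthetase) was lower at p under 0.01 with all mice (1.93% of all genes) but not without M901 and M902. Its log2 fold change was -0.17 ± 0.048 (edgeR FDR = 0.221), and the groups did not overlap for it. Glul also made up most of the sum, with a mean of 3384 CPM in controls. Slc1a3, Sox9 and Apoe had log2 fold changes of -0.04 ± 0.043, -0.0028 ± 0.058 and -0.19 ± 0.148, and their groups overlapped. Rlbp1, the retinaldehyde-binding protein of the same cells, had 436.5 to 471.3 and 439.6 to 504.6 CPM. The part of these cells in the values of Itpr2 was not tested.

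The ryanodine receptors varied between mice of a group more than they differed between the groups. Ryr2 (chr13:11553102-12106945, minus strand), the form best known from heart and also common in brain, had 120.8, 114.6, 97.1 and 87.3 CPM in controls and 79.1, 90.9, 97.0 and 116.3 CPM in Rbfox2 KD mice. The highest Rbfox2 KD mouse thus exceeded 3 of the 4 controls, and the log2 fold change was -0.13 ± 0.125 (edgeR FDR = 0.686). Its 3′ UTR holds 2 of the 6 hexamers shown above.

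Ryr3 (chr2:112631355-113217096, minus strand), a form found at low level in many neurons and smooth muscles, had 37.0, 31.7, 28.4 and 25.6 CPM in controls and 23.2, 26.7, 31.8 and 33.9 CPM in Rbfox2 KD mice. M833 was highest and M893 lowest, as for Ryr2, and the log2 fold change was -0.09 ± 0.134 (edgeR FDR = 0.822). Ryr2 and Ryr3 moved together over the 8 mice (Pearson correlation of 0.954 after subtraction of each group's mean, as a description), which was the highest of all pairs of members. Of the exons of Ryr3, 916 bases (4.83%) overlap Aven on the opposite strand, as do 864 bases of Ryr1 (3.96%) with Gm26604 and 233 bases of Itpr3 (2.58%) with Itpr3os, and whether the counting used strand is not given in the sources used here.

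Ryr1 (chr7:29003344-29125179, minus strand), the receptor of skeletal muscle, was the lowest of the 10 genes. It had 4.01, 5.78, 3.902 and 3.47 CPM in controls and 3.29, 3.88, 4.03 and 4.06 CPM in Rbfox2 KD mice. Apart from M894 with 5.78 CPM, the controls lay within the range of the other group, and the log2 fold change was -0.17 ± 0.153 (edgeR FDR = 0.670), or 0.0090 without M894. The composition of the family was even across mice: Ryr2 made up 73.0 to 73.7% of the summed FPKM in controls and 71.3 to 73.7% in Rbfox2 KD mice.

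**Figure D3:**
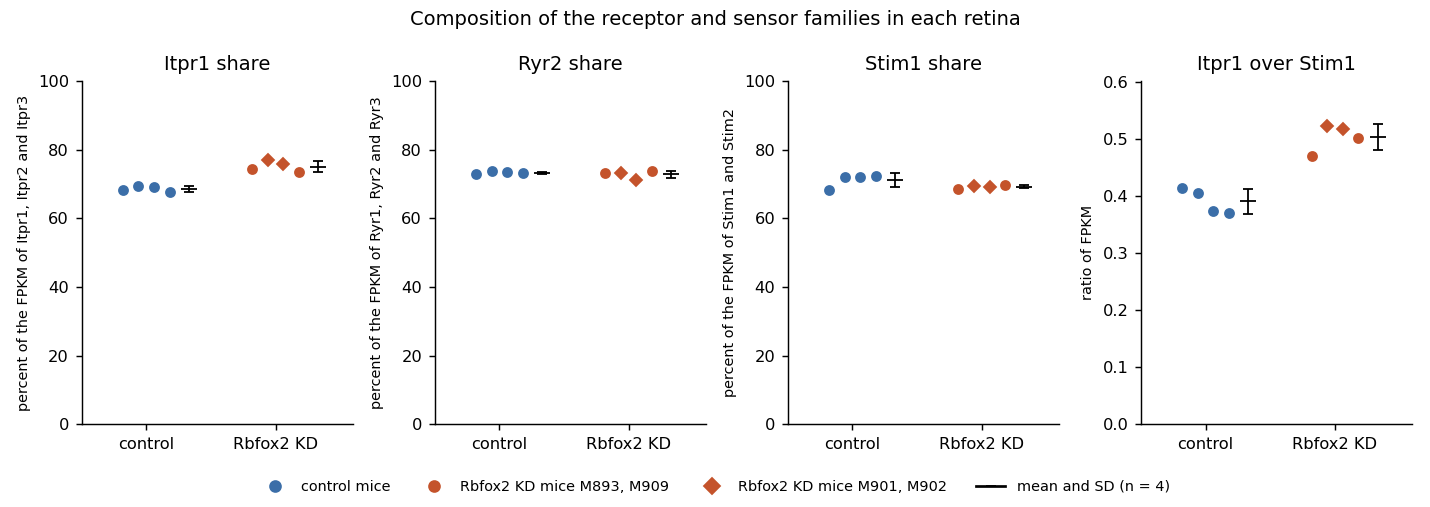
Share of Itpr1, Ryr2 and Stim1 in the summed FPKM of their families (percent, 3 left panels) and the ratio of Itpr1 to Stim1 (right panel) in each mouse, with the mean and SD of each group (n = 4), controls in blue and Rbfox2 KD mice in red. The share of Itpr1 is at most 69.5% in controls and at least 73.5% in Rbfox2 KD mice, whereas the shares of Ryr2 and Stim1 overlap between the groups.

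Stim1 (chr7:102267806-102437319, plus strand) encodes the calcium sensor that opens ORAI channels once the store is depleted. It had 80.3, 85.1, 88.4 and 90.5 CPM in controls and 79.5, 75.8, 74.4 and 77.8 CPM in Rbfox2 KD mice. All Rbfox2 KD mice were below all controls in CPM, M893 only just below M833, but in FPKM, which is not TMM-scaled, M893 with 22.24 was above M833 with 21.95. The log2 fold change was -0.16 ± 0.043, or -10.7%, with an FDR of 0.198 in edgeR's quasi-likelihood test, while DESeq2 gave an FDR of 0.0356. Without M901 and M902, it was -0.13 ± 0.059 (edgeR FDR = 0.830). Leaving out any 1 of M896, M898, M901 and M902 gave edgeR p-values from 0.0108 to 0.0132 and log2 fold changes from -0.16 to -0.14.

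Stim2 (chr5:53998499-54121057, plus strand), a sensor that responds to smaller losses of stored calcium, had 51.0, 45.2, 46.4 and 47.2 CPM in controls and 49.6, 45.5, 45.1 and 45.9 CPM in Rbfox2 KD mice. The groups overlapped over most of their range, with M833 and M893 highest, and the log2 fold change was -0.03 ± 0.049 (edgeR FDR = 0.837). The share of Stim1 in the summed FPKM of both sensors was 68.2 to 72.3% in controls and 68.6 to 69.8% in Rbfox2 KD mice. Its size depends on the length used, since per kb of all annotated exons Stim2 (9.15 CPM per kb) exceeded Stim1 (7.86). The lowest share was that of a control, M833. M833 also had the lowest sum over 7 ganglion cell markers, with 661 CPM against 829 to 1096 CPM in the other mice.

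Orai1 (chr5:123015074-123030456, plus strand), the pore of the store-operated channel, had 7.11, 7.25, 6.52 and 7.77 CPM in controls and 7.05, 7.004, 6.22 and 6.49 CPM in Rbfox2 KD mice. The groups overlapped, with M902 lowest and M898 highest, and the log2 fold change was -0.10 ± 0.074 (edgeR FDR = 0.597). Its 3′ UTR of 776 bases holds 2 of the hexamers, whose printed windows overlap.

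Atp2a2 (chr5:122453513-122502225, minus strand) encodes SERCA2, the pump that returns calcium to the ER. It had 423.6, 431.8, 429.2 and 419.1 CPM in controls and 437.5, 465.6, 410.1 and 426.7 CPM in Rbfox2 KD mice. M901 and M902 were the highest and the lowest of all mice, and the log2 fold change was 0.03 ± 0.043 (edgeR FDR = 0.801). The difference between the means was smaller than the spread of the Rbfox2 KD mice, 426 ± 5.70 against 435 ± 23.3 CPM (SD, n = 4).

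Ratios between members put these levels together. The ratio of Itpr1 to Stim1 in FPKM was 0.414, 0.406, 0.373 and 0.371 in controls and 0.471, 0.523, 0.518 and 0.502 in Rbfox2 KD mice, without overlap. The ratio of Itpr1 to Atp2a2, the release channel over the refilling pump, was 0.0921 to 0.0960 in controls and 0.102 to 0.112 in Rbfox2 KD mice, also without overlap. That of Atp2a2 to Stim1 was 3.87 to 4.405 and 4.58 to 5.13. Other ratios overlapped between the groups. The ratio of Itpr1 to Ryr2, the main release channels of their families, was 1.28 to 1.80 in controls and 1.57 to 2.21 in Rbfox2 KD mice. The ratios of Stim1 to Stim2, Stim1 to Orai1 and Ryr2 to Ryr3 overlapped as well. These ratios share their members with the values above and are no separate evidence.

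**Figure D4:**
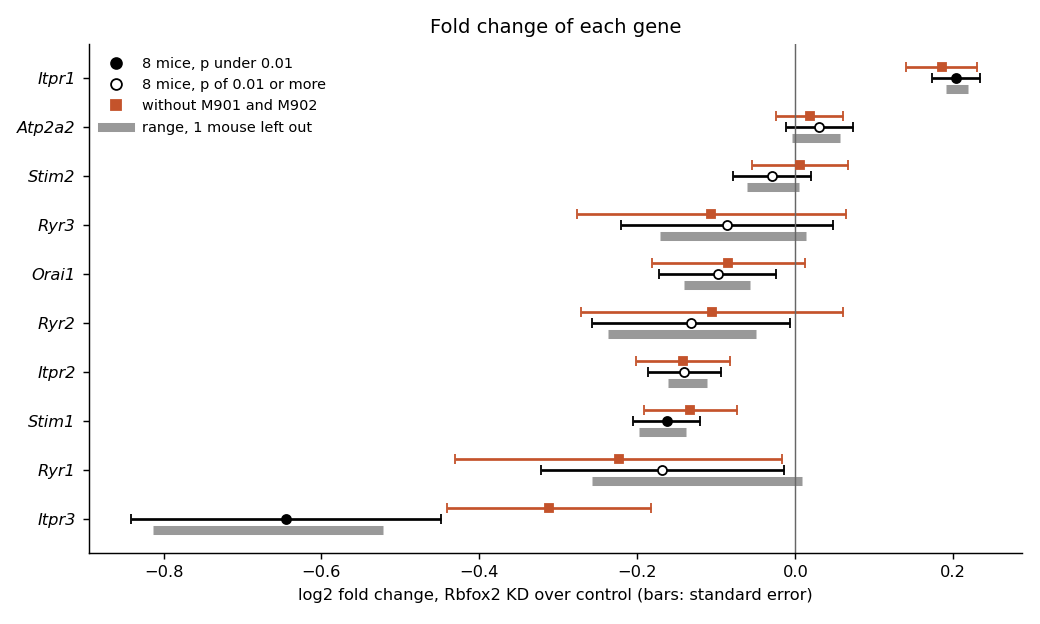
Log2 fold change of each gene (Rbfox2 KD over control, with its standard error) in 8 mice (black, filled where p is under 0.01) and without M901 and M902 (red), with the range over fits that leave out 1 mouse (grey). Itpr1 stays near 0.20, and Itpr3 moves from -0.64 to -0.31 without M901 and M902.

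The other genes of the pathway were followed in 7 lists with 112 tested genes, of which 0 passed an FDR of 0.05 (0.0655% of all genes) and 11 passed p under 0.01 (3.88% of all genes) in edgeR's quasi-likelihood test. The lists were also chosen with earlier results of these data known, so their counts are a description and no test of a list. Of their genes, the study's pathway table lists Calr, Hsp90b1, Hspa5 and Pdia3, each marked with a plus. In the IP3 receptor regulators (20 genes), 0 passed p under 0.01 and the median log2 fold change was -0.05. Its most abundant genes, Erlin2, which takes part in the degradation of active IP3 receptors, and Cabp1, a calcium-binding protein of the receptor, had log2 fold changes of 0.03 ± 0.035 and 0.02 ± 0.046.

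Upstream of these receptors, the list for IP3 production (21 genes) had a median of -0.08. At p under 0.01, 0 were higher (1.94% of all genes) and 2 lower (1.93%). Plcg1, a phospholipase C that cleaves the lipid precursor of IP3, was 43.3 to 46.7 CPM in controls and 37.1 to 40.2 CPM in Rbfox2 KD mice, a log2 fold change of -0.19 ± 0.042 (edgeR FDR = 0.144). Grm5, a metabotropic glutamate receptor coupled to phospholipase C, was 31.5 to 36.8 and 29.5 to 30.7 CPM, with -0.21 ± 0.051 (edgeR FDR = 0.178). Both genes lay below all controls, as did Gna11, Chrm3 and Htr2c, 5 genes of the list in all (3.39% of all genes).

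Among the partners of ryanodine receptors (17 genes), the median was -0.06. At p under 0.01, 1 was lower (1.93% of all genes) and 0 were higher (1.94%). The lower gene was Asph, whose locus also encodes the junctional protein junctin. Asph had 110.1 to 122.3 CPM in controls and 92.5 to 110.8 CPM in Rbfox2 KD mice, which overlapped, and a log2 fold change of -0.20 ± 0.060 (edgeR FDR = 0.239). It was -0.12 ± 0.063 without M901 and M902 (edgeR FDR = 0.879) and -0.098 ± 0.054 with 1 surrogate variable (edgeR FDR = 0.843), above p of 0.01 in both.

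Among the partners of store-operated entry (15 genes), 0 passed p under 0.01 (3.88% of all genes), with a median of 0.015. Ahcyl1, or IRBIT, which binds the IP3 receptor, and Tmem66, or SARAF, which limits STIM activity, were the most abundant, with log2 fold changes of 0.03 ± 0.033 and 0.01 ± 0.034. The other calcium pumps and their regulators (11 genes tested) had a median of -0.09. At p under 0.01, 1 was higher (1.94% of all genes) and 1 lower (1.93%). Nnat, a small membrane protein related to the SERCA inhibitor phospholamban, was 16.0 to 19.2 CPM in controls and 19.8 to 22.3 CPM in Rbfox2 KD mice, with 0.25 ± 0.063 (edgeR FDR = 0.184). Atp2a3, the SERCA3 pump, was 6.62 to 8.50 and 5.23 to 6.97 CPM, with -0.38 ± 0.105 (edgeR FDR = 0.221), and its groups overlapped.

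The calcium-binding proteins of the ER lumen (14 genes) had 5 higher (1.94% of all genes) and 1 lower (1.93%) at p under 0.01, with a median of 0.10. Calr, or calreticulin, which buffers stored calcium, had 307.7 to 356 CPM in controls and 411 to 501.1 CPM in Rbfox2 KD mice, a log2 fold change of 0.41 ± 0.071 (edgeR FDR = 0.0837). Hsp90b1, the ER form of Hsp90, had 0.37 ± 0.065, Pdia6, a disulfide isomerase, 0.32 ± 0.067, Hspa5, the chaperone BiP, 0.29 ± 0.088 and Pdia3, another disulfide isomerase, 0.19 ± 0.055. Of these, Calr, Hsp90b1, Pdia6 and Pdia3 were above all controls in every Rbfox2 KD mouse (3.64% of all genes), while Hspa5 overlapped. They were named for p under 0.01 on the same values, so their separation is no further evidence. Sdf4, a calcium-binding protein of the Golgi lumen, was the lower one, with -0.10 ± 0.030. In the list for mitochondrial calcium uptake (14 genes), 0 passed p under 0.01, and its log2 fold changes lay between -0.06 and 0.04. Of the 11 genes named at p under 0.01, Calr, Hsp90b1, Pdia6, Nnat, Plcg1 and Grm5 stayed under it in all 8 fits that left out 1 mouse, while Hspa5, Pdia3, Sdf4, Asph and Atp2a3 did so in 1 to 3 of the 8. Without M901 and M902, 5 of the 11 (Calr, Hsp90b1, Pdia6, Nnat and Grm5) still passed p under 0.01 and 6 did not. The log2 fold changes of those 6 were then 0.20 ± 0.084 for Hspa5, 0.16 ± 0.052 for Pdia3, -0.12 ± 0.043 for Sdf4, -0.12 ± 0.063 for Asph, -0.28 ± 0.129 for Atp2a3 and -0.16 ± 0.049 for Plcg1. In this fit 1 other gene passed, the ER chaperone Canx, with 0.17 ± 0.047.

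**Figure D5:**
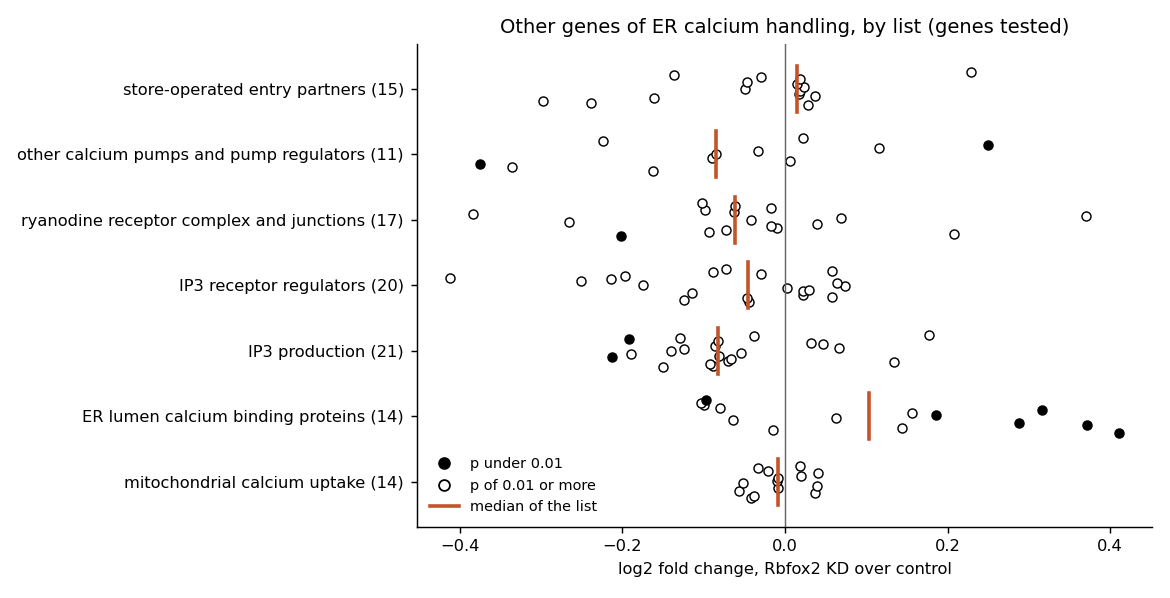
Log2 fold change (Rbfox2 KD over control) of the tested genes in the 7 lists of ER calcium handling, each circle a gene, filled where p is under 0.01, with the median of each list in red. The calcium-binding proteins of the ER lumen hold 5 of the filled circles to the right of 0, and the genes of mitochondrial calcium uptake lie between -0.06 and 0.04.

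For 3 members, the genes most alike over the 8 mice were looked up among genes with a mean of at least 10 CPM, as Pearson correlations of log2 CPM after subtraction of each group's mean, given as a description of libraries that share their depth and handling. For Itpr1 they were Eogt, Poll, Abca13, Bach1 and Sec22a (0.949 to 0.891), for Stim1 Rps19, Rhob, Ano10, Nenf and Clp1 (0.975 to 0.967), and for Atp2a2 Tbck, Sema3e, 2510009E07Rik, Clptm1 and Grm7 (0.982 to 0.961).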

How the data were processed

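By the study's methods, paired reads were aligned with STAR to mm10, uniquely mapped fragments were counted with HTSeq (both RefSeq and Ensembl annotation are named), and the labels list CASAVA 1.8.2 and edgeR. The authors deposited raw counts and FPKM values per mouse (FPKM from table totals and gene length, without TMM); their 16 adjusted per-mouse columns and comparison columns (fold changes, p-values) were not used.

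In R 4.3.3, edgeR 4.0.16 was used: low counts were removed (filterByExpr), and the rest were TMM-normalized and tested by quasi-likelihood over 16797 genes without covariates, with Benjamini-Hochberg adjustment. CPM used TMM-scaled library sizes. The procedure was tested on simulated counts. Nothing states how the mice relate by litter. The named genes were the 10 members, genes of 7 pathway lists with p under 0.01 (otherwise the most abundant) and correlated genes. The members and lists were chosen with earlier results of these data known. The 19 alternatives were DESeq2 1.42.0, limma 3.58.1 (voom and trend), other tests, scalings and filters, 1 surrogate variable (sva 3.50.0), M901 and M902 left out or given a term, and each mouse left out. Protein sequences and introns were not used. The Cre driver line is not reported here.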

Additional observations from a re-analysis of the deposited data

How the results depend on the processing

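Precision was limited by 4 mice per group, and the threshold decided more than the direction. DESeq2 called 2 members at FDR under 0.05 (Itpr1 and Stim1) and edgeR's likelihood ratio test 1 (Itpr1), and leaving out each mouse gave 0 in every fit. Instead of 3 members, 1 (Itpr1) had p under 0.01 without M901 and M902, with a term for them and with 1 surrogate variable, and numbered 1 to 4 when each mouse was left out, 1 without M896, M898, M901 or M902. The cause was not tested. Pathway genes with p under 0.01 (11) were 17 in DESeq2, 6 without M901 and M902, 5 with the term, 4 with the surrogate variable and 6 to 14 with a mouse left out. Of all genes, 11 passed the FDR threshold, against 460 in DESeq2, 164 in the likelihood ratio test, 1 without M901 and M902, 4 with the term, 4 with the surrogate variable and 5 to 35 with a mouse left out; at p under 0.01, 651 became 1073 in DESeq2, 253 without M901 and M902, 296 with the term, 298 with the surrogate variable and 354 to 995 with a mouse left out.

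Log2 fold changes that turned in sign were all close to 0: Stim2 had 0.0058 without M901 and M902, 0.0083 with the term, 0.0014 with the surrogate variable and 0.0041 without M833, Ryr1 0.0090 without M894, Ryr3 0.013 without M833 and 0.0050 without M893, and Atp2a2 -0.0046 without M901. Of the other genes, Tmem66 had -0.0043 without M901 and M902, -0.0014 with the term, -0.0052 without M833 and -0.0048 without M901, Cabp1 -0.049 without M901 and M902, -0.046 with the term, -0.044 with the surrogate variable, -0.0035 without M833, -0.0017 without M901 and -0.0011 without M902, Mfn2 0.0093 without M909, and Pdgfrb -0.028 without M896, -0.026 without M893 and -0.056 without M909. With each mouse left out in turn, the other end of the range was -0.26 for Ryr1 (without M898), -0.17 for Ryr3, -0.061 for Stim2, 0.057 for Atp2a2, 0.031 for Tmem66, 0.056 for Cabp1, -0.017 for Mfn2 and 0.070 for Pdgfrb. The order of levels was the same when medians replaced means. No paired analysis was possible because the labels give the mice no shared replicate numbers.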
